A study of Mus musculus with 5 samples.

Results

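Bcl11b, Gata3, Ets1 and Ikzf1 encode 4 DNA-binding proteins on which the T cell lineage depends, and the open chromatin and factor binding around them were described in CD4 and CD8 double positive (DP) thymocytes. The members were all regions of 3 deposited lists that overlapped 1 of 4 mm9 windows set around the genes: the Bcl11b window on chromosome 12 from 109100001 to 109300000 (200 kb), the Gata3 window on chromosome 2 from 9700001 to 9850000 (150 kb), the Ets1 window on chromosome 9 from 32400001 to 32650000 (250 kb) and the Ikzf1 window on chromosome 11 from 11550001 to 11700000 (150 kb). They came to 184 of the 56796 regions of the lists. Of these, 168 of 48320 were DNaseI regions, 7 of 4930 were HEB regions and 9 of 3546 were TCF1 regions. All regions came from DP thymocytes of the mouse strain C57/BL6 at an age of 4 to 6 weeks, with no treatment or mutation named. DNaseI regions mark chromatin that the nuclease cut readily. HEB and TCF1 regions mark where chromatin immunoprecipitation recovered those transcription factors. Each assay had 1 sample, so no value has a replicate error, and intervals cover counting error only. Whether the cells carried DP markers was not tested, since no expression was measured in the data used here. The H3K9me3 and H3K27ac samples of the series were not analysed here.

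T cell development turns on a small set of transcription factors that act in sequence. TCF1, an HMG-box protein induced by Notch signals, acts early, and GATA3 and BCL11B follow. BCL11B, a zinc finger protein, is known for closing off other fates as progenitors commit to the T lineage. GATA3, a zinc finger protein that binds GATA sequences, is needed from the earliest T cell stages and again for CD4 cells. ETS1 belongs to the ETS family, which shares a winged helix DNA-binding domain, and is abundant in lymphocytes. IKAROS, the zinc finger protein encoded by Ikzf1, is needed for lymphoid development and restrains the growth of thymocytes. HEB is an E protein, which binds E-boxes together with E2A in thymocytes.

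Letters that HEB and TCF1 are known to bind were looked up in the RefSeq promoters of these genes (build GRCm38.p6), the sequence of these loci that could be read here. Of the 4 genes 3 had an entry, with 1 start for Bcl11b, 1 for Gata3 and 2 for Ikzf1, and the 250 bases before each start are shown. Capitals mark CTTTG, the core of the TCF motif, on either strand. CANNTG, the E-box, was searched on both strands too and would also be in capitals.

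Bcl11b (chr12:108003415-108003664, minus strand): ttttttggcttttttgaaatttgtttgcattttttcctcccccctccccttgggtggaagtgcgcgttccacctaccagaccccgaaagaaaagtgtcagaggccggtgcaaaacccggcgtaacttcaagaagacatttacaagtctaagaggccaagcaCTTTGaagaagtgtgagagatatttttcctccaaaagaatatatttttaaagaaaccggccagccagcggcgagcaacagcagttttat
Gata3 (chr2:9878601-9878850, minus strand): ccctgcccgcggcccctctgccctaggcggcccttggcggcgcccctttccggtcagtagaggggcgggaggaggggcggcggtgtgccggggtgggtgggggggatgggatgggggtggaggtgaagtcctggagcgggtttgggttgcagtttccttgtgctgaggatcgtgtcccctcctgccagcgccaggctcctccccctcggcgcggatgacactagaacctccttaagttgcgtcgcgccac
Ikzf1, lower start (chr11:11685675-11685924, plus strand): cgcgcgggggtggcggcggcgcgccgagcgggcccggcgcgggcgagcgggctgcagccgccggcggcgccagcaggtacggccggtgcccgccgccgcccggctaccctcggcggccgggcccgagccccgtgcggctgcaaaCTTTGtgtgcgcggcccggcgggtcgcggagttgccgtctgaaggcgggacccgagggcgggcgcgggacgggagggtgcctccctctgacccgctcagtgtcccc
Ikzf1, higher start (chr11:11689927-11690176, plus strand): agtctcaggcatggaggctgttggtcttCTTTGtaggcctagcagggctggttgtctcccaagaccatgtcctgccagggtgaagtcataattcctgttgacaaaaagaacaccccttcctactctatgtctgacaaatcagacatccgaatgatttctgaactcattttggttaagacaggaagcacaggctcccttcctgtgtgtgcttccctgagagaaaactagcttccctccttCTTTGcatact

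CTTTG occurred 1 time before the Bcl11b start, 1 time before the lower Ikzf1 start and 2 times before the higher one. The Gata3 stretch held no match. CANNTG was in none of the 4 stretches. Over all 32851 RefSeq promoters, 48.6% held CTTTG and 66.2% held CANNTG in the same 250 bases. A match is a description of letters, and its absence says nothing of the factor. These coordinates are of another build than the regions, so no region was placed on a promoter, an exon or an intron.

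Open chromatin was dense in these windows. DNaseI regions numbered 66 in the Bcl11b window, 58 in the Ets1 window, 33 in the Ikzf1 window and 11 in the Gata3 window. Together they gave 224 DNaseI regions per Mb (95% Poisson interval 191 to 261) in the windows, against 18.7 per Mb in the rest of the list, a ratio of 12 (10.2 to 13.9). The windows were set around genes and the rest of the list was not. The Bcl11b window held 330 DNaseI regions per Mb (255 to 420), the Ets1 window 232 (176 to 300), the Ikzf1 window 220 (151 to 309) and the Gata3 window 73.3 (36.6 to 131). The interval of Gata3 lay below those of the other windows, and the intervals of Bcl11b, Ets1 and Ikzf1 overlapped. These intervals take regions as independent, though many lay close together, so they are no test between windows.

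On a fixed grid of 200 kb windows over all chromosomes, none of 12875 held 66 or more DNaseI regions. A grid boundary fell inside the Bcl11b window, so that window was not itself among them. With windows starting every 10 kb instead, 36 of 257100 held as many (0.014%), 28 of them away from Bcl11b, and the fullest held 77. Windows placed this way overlap each other, so these are not counts of separate loci. For the Ets1 window the corresponding share was 0.146% of 10303 windows of 250 kb, and for the Ikzf1 window it was 0.402% of 17158 windows of 150 kb. As many DNaseI regions as in the Gata3 window were found in 8.38% of windows of its width. The Ikzf1 window coincided with a grid window and was itself counted in its share, whereas a grid boundary fell inside the Ets1 and Gata3 windows. These shares describe the list and are no test, since each window was set around its gene and the grid was not.

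**Figure D1:**
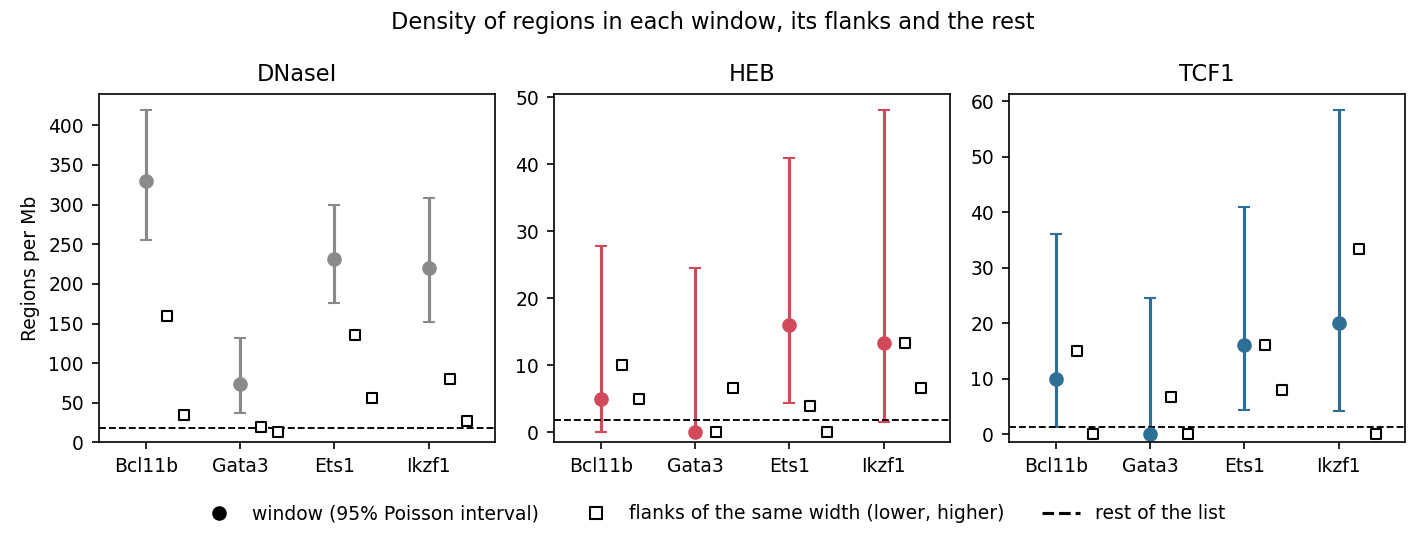
Regions per Mb of the DNaseI, HEB and TCF1 lists (1 panel each) in the window of each gene (points with 95% Poisson intervals), in the flanks of the same width below and above it (open squares) and in the rest of the list (dashed line). DNaseI points run from 73.3 per Mb for Gata3 to 330 for Bcl11b, above both flanks in each window, whereas the wide HEB and TCF1 intervals take in most flanks.

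The surroundings of the genes were less dense. Flanks as wide as each window held 32 DNaseI regions below and 7 above the Bcl11b window, against its 66 inside. The Ets1 window, with 58 inside, had 34 below and 14 above. The Ikzf1 window, with 33 inside, had 12 below and 4 above, and the Gata3 window, with 11 inside, had 3 below and 2 above. In each case the window exceeded either flank. The windows together held 3.11 times the DNaseI density of their flanks, and 5.57 times that of flanks of 500 kb. By gene order in the GRCm38.p6 gene table, the nearest genes annotated as protein-coding are Gm52008 and Setd3 for Bcl11b, Celf2 and Taf3 for Gata3, Fli1 and Kirrel3 for Ets1, and 4930512M02Rik and Fignl1 for Ikzf1. Fli1, the neighbour of Ets1, encodes another ETS factor.

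Single DNaseI regions of the windows were much like those of the rest in score. The score is the authors' own whole number per region, of no stated unit, and is compared here within its list only. The median was 17 (quartiles 10 and 32) in the windows, against 16 (10 and 33) in the rest. Median scores were 18 in the Bcl11b window, 26 in the Gata3 window, 19 in the Ets1 window and 12 in the Ikzf1 window. The 11 Gata3 regions thus had the highest median and the 33 Ikzf1 regions the lowest. The Gata3 regions also had the largest median width, 536 bp, and the Ikzf1 regions the smallest, 253 bp. Median widths were 380.5 bp at Bcl11b and 359 bp at Ets1, and score rose with width, as given below. Scores of 58 or more were reached by 21 of 168 regions, or 12.5% (95% Wilson interval 8.32 to 18.4%), where the whole list had 10.2%. They were 9 of 66 in the Bcl11b window, 1 of 11 in the Gata3 window, 9 of 58 in the Ets1 window and 2 of 33 in the Ikzf1 window.

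The median width was 334 bp in the windows, against 315 bp in the rest. Regions wider than 1 kb were 20 of 168, or 11.9% (7.84 to 17.7%), where the whole list had 6.61%. Regions of exactly 201 bp, the commonest width in the list, were 56 of 168, or 33.3%, against 26.4% in the rest. Score rose with width in the windows as in the list (Spearman's rho 0.95 over the 168 regions, which share 1 sample, and 0.94 over the whole list). The 3 highest scores of each window are therefore also given below as percentiles among DNaseI regions whose width is within 10% of their own.

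**Figure D2:**
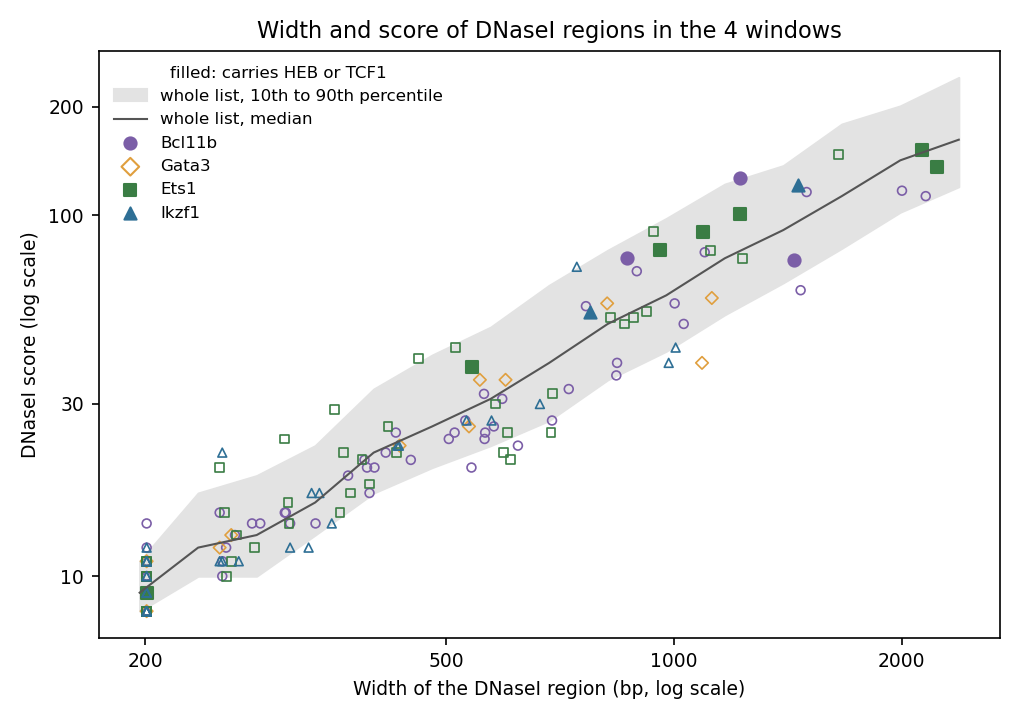
Score against width (bp) of the 168 DNaseI regions of the windows, both on log scales, with a marker shape for each gene and filled markers for regions that carry HEB or TCF1. The line and band give the median and the 10th to 90th percentile of the whole list by width, and most members lie inside the band.

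The Bcl11b window had the most open regions. They covered 34.7 kb, or 17.3% of the window, and the median gap between neighbours was 741 bp. From 109146066 to 109223167, over 77.1 kb, 46 DNaseI regions followed each other with no gap over 5 kb. This was the run ranked 2 by length in the list under that rule. When neighbours had to lie within 2 kb, its longest run went from 109155870 to 109173988 and held 13 regions over 18.1 kb, ranked 21 of 31896 runs. Only 9579 of those runs held more than 1 region, and the others were single regions. Within 1 kb the longest Bcl11b run held 11 regions over 14.5 kb, ranked 5. A separate run of 13 regions under the 2 kb rule went from 109231192 to 109245100.

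The highest DNaseI score in the Bcl11b window was 127, at 109164290 to 109165512 (1223 bp). It stood at percentile 98.4 of the list and 90.3 among regions of like width. The next were 117 at 109158698 to 109160698 (2001 bp) and 116 at 109238109 to 109239605 (1497 bp). Among regions of like width these stood at percentiles 27.7 and 71.1. Past 109245100 the window held a lone region of score 8 and, 22.8 kb further on, another of score 24 at 109279740 to 109280301.

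Factor regions at Bcl11b lay in the first of these runs alone. TCF1 was listed at 109157063 to 109157245 with a TCF1 score of 8, at percentile 6.26 of its list, in a DNaseI region of score 75. It was listed again at 109164384 to 109164566 with a score of 11, at percentile 52.7, in the DNaseI region of score 127. HEB was listed at 109166289 to 109166489 with a HEB score of 12, at percentile 62.7, in a DNaseI region of 868 bp and score 76. The HEB centre lay 1914 bp from the nearer TCF1 centre, in a separate DNaseI region. Thus 3 of 66 open regions carried a factor, or 4.55% (1.56 to 12.5%), and none carried both (0 to 5.5%). The whole list had 8.25% with either factor and 1.28% with both, inside these intervals. Either factor was on 7 of 58 open regions at Ets1, or 12.1% (5.97 to 22.9%), and on 2 of 33 at Ikzf1, or 6.06% (1.68 to 19.6%). The second Bcl11b run, with the DNaseI score of 116, held no HEB or TCF1 region. Its 13 open regions are too few to read against the 8.25%.

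Open chromatin at Ets1 formed the longest run of the list under the 2 kb rule. It went from 32501686 to 32540433 on chromosome 9, with 29 DNaseI regions over 38.7 kb, against 36 kb and 23 regions for the run ranked 2. Under the 1 kb rule the longest Ets1 run held 4 regions over 6.96 kb and ranked 62, and under the 5 kb rule it held 41 over 65.5 kb and ranked 8. The rank of 1 therefore rests on the 2 kb rule. Scores in the 29-region run went from 8 to 147 with a median of 18, and 6 were over 50. Open regions covered 36.7% of it. A single TCF1 region and no HEB region lay in it. Over the whole list TCF1 was on 6.1% and HEB on 3.43% of open regions. The 29 regions are too few to read against those shares.

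The 3 highest DNaseI scores in the Ets1 window were 152 at 32555081 to 32557207 (2127 bp), 147 at 32506152 to 32507800 (1649 bp) and 136 at 32552035 to 32554259 (2225 bp). They stood at percentiles 99.1, 99 and 98.7 of the list. Among regions of like width they stood at 48, 78.5 and 30.3, so the highest and the third lay below the middle of regions as wide. The region of score 147, in the long run, carried neither factor.

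The 4 TCF1 regions of the Ets1 window lay between 32524851 and 32555496. The first, at 32524851 to 32525033 (score 9), lay in the long run in a DNaseI region of score 90. The second, at 32548708 to 32548890 (score 16), lay in one of score 80. The third, at 32553512 to 32553694 (score 17, percentile 85.6), was the highest TCF1 score of all 4 windows and lay in the DNaseI region of score 136. The last, at 32555314 to 32555496 (score 9), lay in the DNaseI region of score 152 beside HEB. A DNaseI region of score 101 that crosses the lower edge of the window, from 32399289 to 32400509, carried a further TCF1 region that ended 206 bp outside the window.

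HEB was listed 4 times in the Ets1 window. The region at 32555352 to 32555552 had a HEB score of 29, at percentile 95.1 of its list, the highest of the 7 HEB members. It overlapped the TCF1 region of the DNaseI region of score 152 by 145 bp, and was the 1 of 7 HEB members to meet TCF1, where 11.7% of the whole HEB list did. The region at 32423676 to 32423876 (score 12) lay in a DNaseI region of score 38. The region at 32597906 to 32598106 (score 11) overlapped a lone DNaseI region of 201 bp and score 9 by 121 bp. The region at 32623141 to 32623341 (score 11) lay 25114 bp from the nearest DNaseI region of the window. HEB scores at the other 3 Ets1 sites were thus at or near the list median of 11.

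The Ikzf1 window had the lowest median score, and 2 of its 33 DNaseI regions scored 58 or more. Its 33 DNaseI regions covered 13.1 kb, or 8.73% of the window, and 14 of them had the width of 201 bp. The highest score was 121 at 11625207 to 11626663 (1457 bp), at percentile 98.2 of the list and 77.5 among regions of like width. The next were 72 at 11590018 to 11590761 (744 bp), at percentile 91.4 among regions of like width, and 54 at 11556942 to 11557716 (775 bp), at percentile 66.9. The longest run under the 2 kb rule had 8 regions over 7.15 kb and no factor. So few regions cannot be read against the 8.25% of the whole list that carried either factor.

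The highest-scoring Ikzf1 region carried 2 HEB regions with a TCF1 region between them. HEB was listed at 11625706 to 11625906 with a HEB score of 17 (percentile 81.6) and at 11626257 to 11626457 with a score of 11. TCF1 was listed at 11625986 to 11626168 with a TCF1 score of 14 (percentile 75.5). Its centre lay 271 bp from the first HEB centre and 280 bp from the second, and gaps of 79 and 88 bp separated the listed intervals. This DNaseI region was 1 of 168 members with at least 2 HEB regions and at least 1 TCF1 region, where 0.0538% of the whole list, or 26 regions, were like this. One region is too few to read against that share.

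The other TCF1 regions of the Ikzf1 window lay near its lower edge. The one at 11557259 to 11557441 (score 9) lay within 21 bp of the centre of the DNaseI region of score 54. The one at 11560776 to 11560958 (score 8, percentile 6.26) lay 1463 bp from the nearest DNaseI region, and was the 1 TCF1 member outside open chromatin.

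The Gata3 window had 11 DNaseI regions and neither factor. Its open regions covered 6.06 kb, or 4.04% of the window, and 10 of the 11 lay between 9789327 and 9821868. The highest scores were 59 at 9792698 to 9793819 (1122 bp), 57 at 9800792 to 9801607 (816 bp) and 39 at 9797791 to 9798879 (1089 bp). Among regions of like width these stood at percentiles 25.6, 67.1 and 1.21. A stretch of 65.8 kb, from 9723482 to 9789326, held no DNaseI region. Windows of this width with neither factor made up 70.6% of the whole grid, and 18.3% of the 1437 that held 11 or more DNaseI regions. The depth of the libraries is unknown, so an empty window does not show that HEB and TCF1 were absent from it.

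**Figure D3:**
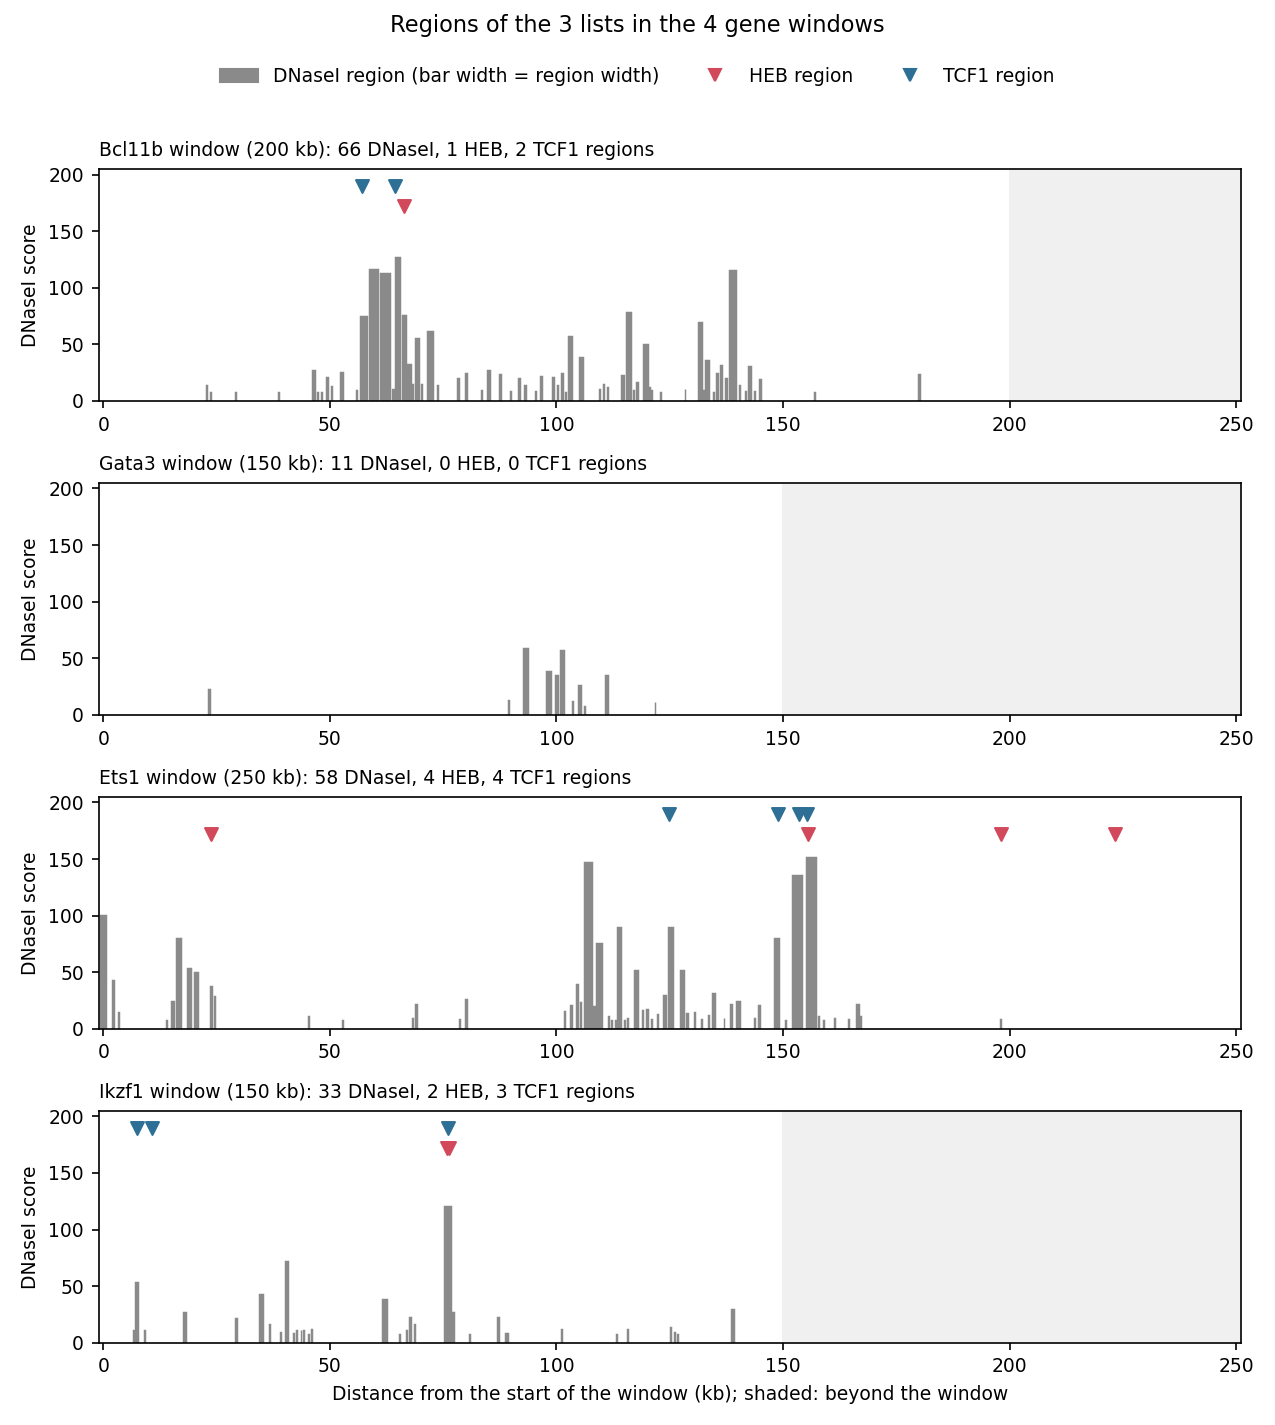
DNaseI regions (bars, height is the score, width is the region's width) and HEB and TCF1 regions (triangles) by distance in kb from the start of each window, with grey shading past the end of windows shorter than 250 kb. At Ets1 the bars of 136 and 152 each stand under a TCF1 triangle and the bar of 147 under none, the tallest Ikzf1 bar of 121 stands under HEB and TCF1 together, and Gata3 has no triangle.

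Over the 4 windows, open regions carried the factors about as often as open regions of the list did. HEB was on 5 of 168 DNaseI regions, or 2.98% (1.28 to 6.78%), where the whole list had 3.43%. TCF1 was on 9 of 168, or 5.36% (2.84 to 9.87%), the region at the lower Ets1 edge included, where the whole list had 6.1%. Both were on 2 of 168, or 1.19% (0.327 to 4.24%), where the whole list had 1.28%. These shares are near the background and are no result about these genes. By density, the windows held 9.33 HEB regions per Mb (3.75 to 19.2) against 1.92 in the rest, and 12 TCF1 regions per Mb (5.49 to 22.8) against 1.38 in the rest. Beside their flanks the windows held 1.75 times the HEB density and 1.2 times the TCF1 density, from 7 and 9 regions inside. The densities of these flanks, 5.33 HEB and 10 TCF1 regions per Mb, lie inside the intervals of the windows. With flanks of 500 kb the ratios were 3.73 for HEB and 2.82 for TCF1. The densities of those wider flanks lie below the intervals of the windows.

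Factor regions of the windows mostly lay in open chromatin. Of the 7 HEB regions 6 did, or 85.7% (48.7 to 97.4%), where the whole list had 34.5%. Of the 9 TCF1 regions 8 did, or 88.9% (56.5 to 98%), where the whole list had 84.9%. No test was run on these shares. The windows also held 12 times the DNaseI density of the rest, and the part of that density in the HEB share was not tested. The median score was 12 for the 7 HEB regions against 11 in the rest, and 9 for the 9 TCF1 regions against 11 in the rest.

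The open regions that carried a factor were mostly wide and high-scoring. The 12 of them had a median DNaseI score of 85 and a median width of 1156 bp, against 15 and 309.5 bp for the 156 without. Over the whole list these medians were 52 and 725 bp with a factor and 15 and 306 bp without. Overlap needed at least 1 bp, so a wider region offered more bases on which to meet a factor, and score rose with width. The part of width in these medians was not tested. The highest-scoring DNaseI region carried TCF1 in 3 of the 4 windows, and HEB as well at Ets1 and Ikzf1. Of the 3 highest-scoring regions of each window, 12 in all, 5 carried a factor. Those of score 147, 117 and 116 carried neither. No share of the whole list was computed for regions picked in this way. Of 9 members with a score over 100, 5 carried a factor, or 55.6% (26.7 to 81.1%), where the whole list had 52.3%. The exception at the other end was the Ets1 region of score 9 that carried HEB.

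HEB and TCF1 regions lay at varied distances from the middle of their open region. The centres of the 6 HEB regions lay 45 to 692 bp from the centre of their DNaseI region, with a median of 107 bp, against a median of 128 bp in the rest. Those of the 8 TCF1 regions lay 21 to 739 bp away, with a median of 280 bp, against 119 bp in the rest. Their DNaseI regions were also wider, with a median of 1331.5 bp against 748 bp. As a share of the distance from centre to edge, the TCF1 medians were 45.7% in the windows and 33.9% in the rest, and the HEB medians were 38.8% and 33.7%.

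**Figure D4:**
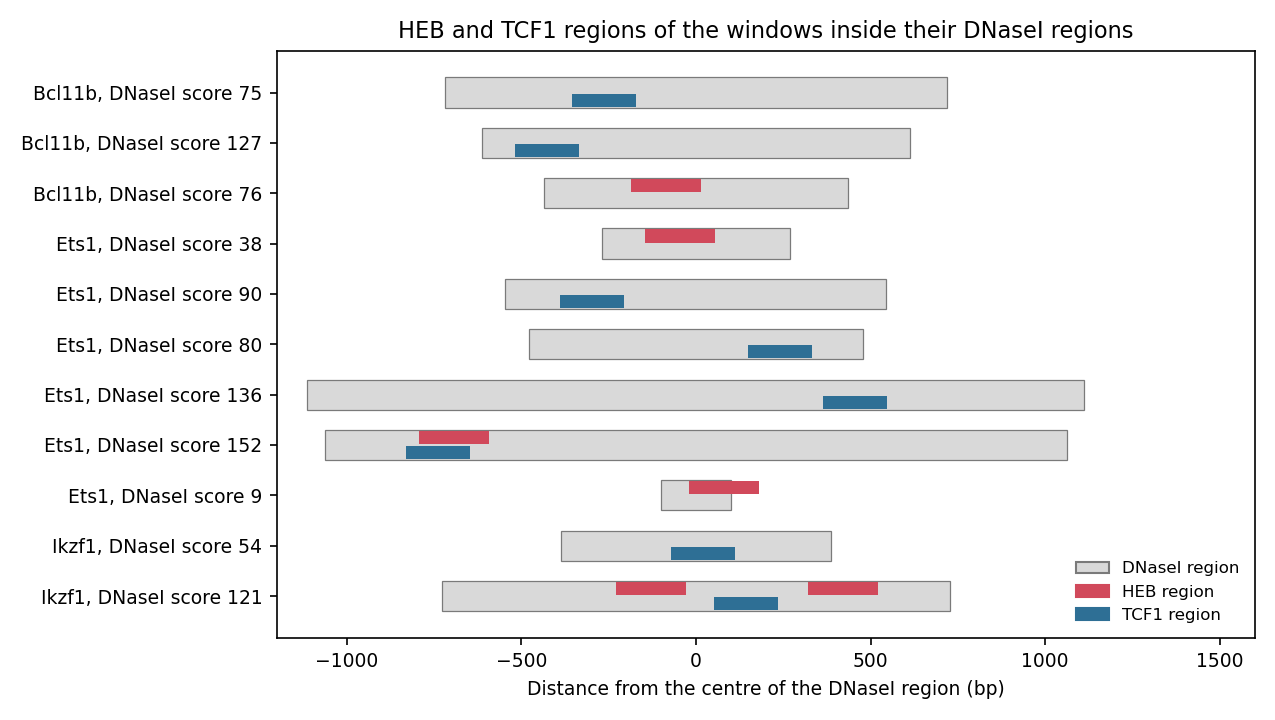
The 11 DNaseI regions (grey bars) that carried a HEB (red) or TCF1 (blue) region of the windows, drawn to scale by distance in bp from the centre of the DNaseI region, lower coordinates to the left. In the Ets1 region of score 152 HEB and TCF1 overlap near the left end, and in the Ikzf1 region of score 121 TCF1 lies between 2 HEB regions.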

How the data were processed

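Open chromatin, HEB and TCF1 were each mapped in 1 sample of DP thymocytes with SOLiD sequencing, as the labels' protocols state. The authors deposited 1 list per assay, with positions and a whole-number score for every region. The submitters' processing notes name HOMER 6.1 and build mm9. Depth is unknown, because the library totals, like the aligner, control and calling threshold, were not given in the sources used here.

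Starts were moved to count from 1. Overlap meant at least 1 bp. Runs joined DNaseI regions at most 2 kb apart. Percentiles are mid-ranks of scores within a list. Intervals are at 95%, by Wilson's method for shares and exact Poisson for densities. Densities outside the windows used 2.57 Gb, the summed distance between the outermost listed regions of each chromosome, with gaps unmasked. No test over samples was possible with 1 sample per assay. All HEB and TCF1 members, the DNaseI regions that carried them and the 3 highest-scoring DNaseI regions of each window are named. The members and lists were chosen with earlier results of these data known, and the promoter search, the runs and the grid were added after the regions were seen. The motif search planned on the regions was not run, for want of an mm9 genome. Overlap counting was tested on simulated data. Python 3.11.15, numpy 2.4.6, pandas 2.3.3 and scipy 1.17.1 were used.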

Additional observations from a re-analysis of the deposited data

How the results depend on the processing

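Counts of members and their overlaps changed little with most settings. Requiring 50% overlap of the shorter region, allowing a gap of 500 bp, taking regions wholly inside the windows or widening the windows by 50 kb left every value within 1.5 times or within its interval. With only scores above each list's median, the windows held 85 DNaseI, 4 HEB and 3 TCF1 regions. There TCF1 was on 4 DNaseI regions and both factors on 1, and 100% of the 4 HEB and of the 3 TCF1 regions lay in DNaseI regions. Narrowing the windows by 25 kb also gave 100%, for 7 TCF1 regions. With flanks of 500 kb the ratio of window to flank density was 5.57 for DNaseI, 3.73 for HEB and 2.82 for TCF1. The rank of the longest run was set by the joining distance, a setting added after seeing the data. With 1 kb and 5 kb it was 5 and 2 for Bcl11b, against 21 with 2 kb. For Ets1 it was 62 and 8, against 1 with 2 kb. Counts for single windows moved in 10 of 48 comparisons, 9 of them under the score filter. No paired analysis was possible because each assay had 1 sample. Depth limits all counts of 0.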

Other observations

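HEB and TCF1 regions were also listed outside the windows. At Gata3, the nearest HEB region lay 86.7 kb above the window, at 9936653 to 9936853 of chromosome 2 (score 13), in a DNaseI region. The nearest TCF1 region lay 96.6 kb below it, at 9603256 to 9603438 (score 13), outside DNaseI regions. Within 1 Mb of the Gata3 window, HEB was listed 5 times above it and 0 times below it, and TCF1 0 times above and 3 times below. At Ikzf1, a HEB and a TCF1 region that overlapped each other lay in a DNaseI region about 80.2 kb below the window, at 11469561 to 11469761 and 11469537 to 11469719 of chromosome 11. No TCF1 region was listed within 1 Mb above the Ikzf1 window, and the next one lay 5151 kb away.

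At Bcl11b, the first HEB regions beyond the window lay 98.2 kb below and 97 kb above it. The next TCF1 regions lay 82.2 kb below and 517 kb above it. Within 1 Mb, 10 TCF1 and 7 HEB regions lay below the Bcl11b window, and 4 of each lay above it. At Ets1, the next TCF1 region above the window lay 84 kb away, at 32733977 to 32734159 of chromosome 9, with a TCF1 score of 20 (percentile 91.3), higher than any TCF1 member. The next HEB region above lay 938 kb away. None of these regions was tied to a gene.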
